A study of Mus musculus with 29 samples.

Results

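Interferon-stimulated genes were followed in the tibialis anterior (TA) muscle of aging mice through 9 genes chosen by symbol, Irf7, Isg15, Ifit1, Ifit3, Oasl2, Rtp4, Bst2, Usp18 and Ubd, out of the 22537 gene symbols of the count table. The 9 genes were chosen with earlier results of these data known. RNA came from the whole TA of male C57BL/6 mice of the NIA aging colony, an inbred strain. There were 7 mice at 6 months (6m), 7 at 24 months (24m) and 8 at 28 months or older (28m). The study names no transgene and no treatment in any group. Its mice had completed tests of physical function, among them treadmill and wheel running, before the muscle was taken. Poly-A RNA was sequenced in 2 runs and 29 libraries, the 24m group in the first and the 28m group in the second. Every 6m mouse has a library in each run, so that each old group can be read against 6m libraries sequenced beside it. The comparison asks how these genes differ between adult and old muscle.

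Interferons are secreted proteins that cells release when they sense viral or misplaced nucleic acid. Type I interferons bind a receptor that activates the kinases Jak1 and Tyk2. The signal reaches the nucleus through a complex with Irf9 that binds the interferon-stimulated response element (ISRE) in the promoters of many genes, and interferon gamma acts at another element, the gamma-activated site (GAS). The products sense or bind viral RNA, hold virus particles at the cell surface, modify proteins, or damp the signal again. In muscle, genes of this group are known from inflammatory myopathies, above all dermatomyositis.

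Of the 9 genes, 7 had a window around the annotated start in the RefSeq promoter table (GRCm38.p6), and Rtp4 and Usp18 were not among them. An ISRE was searched as GAAA, any 2 bases and GAAA on either strand of these windows of 300 bases. It was present in Isg15, Ifit1, Ifit3 and Bst2, against 3.44% of all 32851 windows, and these letters were not in the windows of Irf7, Oasl2 and Ubd. The 160 bases before the start are shown for the 4 genes with a match, written 5′ to 3′ on the strand of the gene with the ISRE matches in capitals, because these are the elements the pathway is known to act through.
Isg15, chr4:156200819-156200978, minus strand: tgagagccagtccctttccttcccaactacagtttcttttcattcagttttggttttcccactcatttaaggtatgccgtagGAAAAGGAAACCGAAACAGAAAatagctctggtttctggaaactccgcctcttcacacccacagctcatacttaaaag
Ifit1, chr19:34640729-34640888, plus strand: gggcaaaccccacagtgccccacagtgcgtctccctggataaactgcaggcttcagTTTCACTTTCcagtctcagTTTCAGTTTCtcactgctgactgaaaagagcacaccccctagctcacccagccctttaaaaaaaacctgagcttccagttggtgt
Ifit3, chr19:34583369-34583528, plus strand: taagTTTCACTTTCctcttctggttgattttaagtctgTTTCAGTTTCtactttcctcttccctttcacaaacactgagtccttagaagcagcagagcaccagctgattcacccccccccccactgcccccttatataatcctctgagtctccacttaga
Bst2, chr8:71537473-71537632, minus strand: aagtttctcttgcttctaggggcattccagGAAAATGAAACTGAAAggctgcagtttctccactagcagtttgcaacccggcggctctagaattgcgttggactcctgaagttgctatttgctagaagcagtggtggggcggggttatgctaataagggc

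Isg15 had 3 matches that overlap in 1 unbroken stretch, with first bases at positions -78, -72 and -66 from the start, and Bst2 had 2 overlapping matches at -130 and -124. Ifit1 and Ifit3 lie near each other on chromosome 19, and each had 2 separate matches on the opposite strand, at -104 and -85 in Ifit1 and at -156 and -122 in Ifit3. The 2 elements of Ifit1 have the same letters as the 2 of Ifit3, in the same order. A GAS, TTC, any 3 bases and GAA, was found among the 7 in Bst2 only, at -136 with its last 3 bases inside the first ISRE match, and in 8.3% of all windows. A kappaB motif, GGGA, any 3 bases and TCC, was in none of the 7 and in 4.59% of all windows. These are matches of letters, and no binding was measured.

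The genes lie on 8 chromosomes, with positions of GRCm38 from GENCODE. Irf7 (chr7:141262706-141266481) shares 45 exonic bases with Phrf1 on the opposite strand, and since the strand setting of the counting is not stated, reads there could belong to either. Isg15 (chr4:156199424-156200818), Bst2 (chr8:71534255-71537456) and Ubd (chr17:37193892-37196095) are short, with 756, 903 and 931 exonic bases. Oasl2 (chr5:114896936-114912234) is the longest, with 6374. Exonic bases are joined over all annotated transcripts, and the longest single transcript has 3123 bases in Oasl2 and 3240 in Irf7. Ifit3 (chr19:34583531-34588731) shared 41.1% of its 75-base stretches with its near copy Ifit3b, so its counts are uncertain. The share was 12.4% in Rtp4 (chr16:23520291-23614222), 5.19% in Ifit1 (chr19:34640871-34650009), 3.06% in Usp18 (chr6:121245906-121270917) and 0 in the other 5. Ifit1 shared them with Ifit1bl2. Rtp4 and Usp18 shared them with Gm45338 and Gm44148, which overlap their own exons and are not in the count table.

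Libraries held 17633475 to 33499162 counts, with a median of 24250878. Values are CPM, the count of a gene relative to the scaled size of its library, scaled by TMM over the 29 libraries. Markers of skeletal muscle fibres summed to between 1.17e+05 and 1.90e+05 CPM in every library. Some libraries stood apart in the way counts depended on the length of a gene. The slope of a gene's log2 level on the log2 of its exonic length, relative to all libraries, lay between 0.106 and 0.146 in the 6m libraries of run 2 and between -0.367 and 0.0697 at 28m, so the groups did not overlap. In the first run, 24m replicate 4 had a slope of -0.42 and 6m replicate 4 one of -0.193. A negative slope means that short genes took relatively more reads, and at 28m this trend and age cannot be told apart. The values of the tested genes are therefore also given with a trend with length and GC content removed from every library.

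At 28m, 7 of the 8 genes with enough counts for the test rose, by 1.60-fold in Usp18 to 2.77-fold in Isg15, and the median log2 fold change (log2fc) of the 8 was 1.10 against 0.01 over all genes. The exception was Oasl2. In this comparison 24.3% of the 12994 genes tested rose and 22.9% fell. Since the 9 genes were chosen with earlier results of these data known, their share and median are no test of the pathway. Ubd, too rare for the test, was found in the libraries of all 8 mice at 28m and in 1 of the 7 6m libraries of that run, and 2 of the 7 from the first run held 1 count each. The 28m mice were far apart, and none of the 9 genes separated the ages completely, while all 28m mice lay above all 6m mice in 6.21% of the genes tested.

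**Figure D1:**
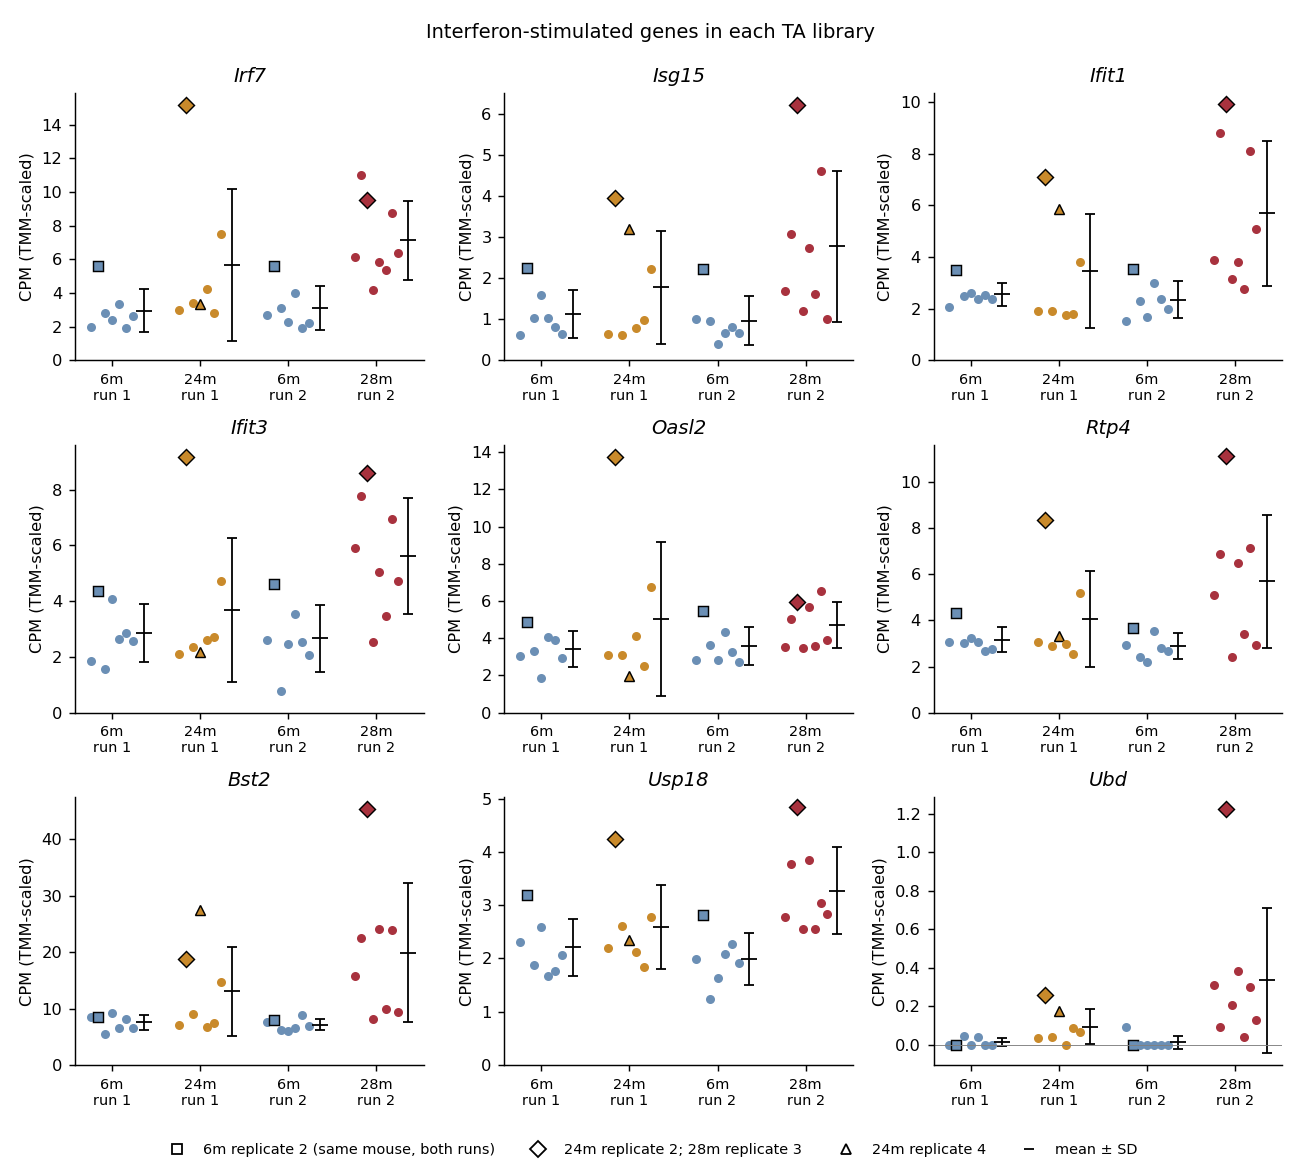
Levels of the 9 genes in each library, in CPM on an axis of its own for each gene, with the 4 groups side by side and the mean ± SD (n = 7, 7, 7 and 8) at the right of each group. Squares mark the 6m mouse that was highest in most genes in both runs, diamonds 24m replicate 2 and 28m replicate 3, and triangles 24m replicate 4; in Bst2, 28m replicate 3 reached 45.4 CPM and no 6m library exceeded 9.25.

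Irf7 encodes the transcription factor that amplifies the production of type I interferon. Its level in the second run was 1.89 CPM at the lowest, 2.67 at the median and 5.58 at the highest at 6m, and 4.15, 6.25 and 11.0 at 28m. At 28m, 6 of the 8 mice exceeded every 6m mouse, and the overlap came from 1 young mouse, replicate 2, whose level was above those of the 2 lowest old mice. The log2fc was 1.16 ± 0.25 (SE; adjusted p = 0.00206), and with the length and GC trend removed it was 1.22 ± 0.25, the gene among the 8 that moved least.

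Isg15 encodes a ubiquitin-like protein that is attached to other proteins after interferon exposure. Its levels were 0.409, 0.811 and 2.22 CPM at 6m, as lowest, median and highest, and 1.01, 2.21 and 6.21 at 28m. Of the 8 old mice, 4 exceeded the highest young mouse, and the other 4, at 1.01 to 1.70 CPM, lay above 6 of the 7 young mice, the second highest of which was at 0.995. The log2fc was 1.47 ± 0.42 (adjusted p = 0.00966). Isg15 is the shortest of the genes, and without the length and GC trend its log2fc fell to 0.77 ± 0.31 and was not called (adjusted p = 0.0623; between 0.00116 and 0.229 over all settings).

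Usp18 cleaves Isg15 from its targets and damps signaling at the type I interferon receptor. It was at 1.24, 1.99 and 2.81 CPM at 6m and at 2.55, 2.93 and 4.84 at 28m, and 5 of 8 old mice lay above all young ones. The rise was the smallest called, with a log2fc of 0.68 ± 0.18 (adjusted p = 0.00703), and it was 0.50 ± 0.16 with the trend removed. The spread of Usp18 among old mice was unremarkable: its SD of log2 CPM at 28m stood at percentile 45.9 of all genes, while that of Isg15 stood at percentile 95.4.

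Ubd encodes FAT10, a ubiquitin-like protein known to send its targets to the proteasome. In the second run, 2 counts were found at 6m, both in replicate 1, and 62 at 28m, in numbers of 8, 2, 25, 5, 10, 1, 8 and 3 for replicates 1 to 8. Summed over the libraries this was 0.0130 CPM (95% exact Poisson interval 0.00157 to 0.0469) against 0.323 CPM (0.247 to 0.414), a ratio of 24.9 with an exact interval of 6.60 to 210. These intervals cover counting error only. The means of log2 CPM differed by 1.83 (exact permutation test, two-sided, p = 0.000622, adjusted over the 2 tests of Ubd 0.00124), and 7 of 8 old mice lay above all young ones. Ubd did not pass the filter on low counts, and in the fit without the filter, in which 16.5% of 18670 genes rose, its log2fc was 4.15 ± 0.88 (adjusted p = 0.00249).

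Oasl2 belongs to the family of oligoadenylate synthetases and carries ubiquitin-like domains. Its levels were 2.72, 3.28 and 5.46 CPM at 6m and 3.50, 4.46 and 6.56 at 28m, and 3 of 8 old mice exceeded the highest young one. The log2fc was 0.37 ± 0.19 (adjusted p = 0.119), with a 95% interval from -0.04 to 0.77. The call depended on the setting: Oasl2, the longest of the genes, passed with the length and GC trend removed (log2fc 0.63 ± 0.22, adjusted p = 0.0305) and without 6m replicate 2 (0.51 ± 0.18, adjusted p = 0.0344), and its adjusted p lay between 0.0305 and 0.366 over all settings.

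Ifit1 and Ifit3 encode partner proteins that bind viral RNA and block its translation. Ifit1 was at 1.54, 2.31 and 3.53 CPM at 6m and at 2.76, 4.50 and 9.93 at 28m, with 6 of 8 old mice above all young ones. At 28m the mice fell in a low set of 5, between 2.76 and 5.11 CPM, and 3 mice, replicates 2, 3 and 7, between 8.10 and 9.93. The log2fc was 1.23 ± 0.29 (adjusted p = 0.00358), and 0.91 ± 0.25 with the trend removed. Ifit3 was at 0.79, 2.55 and 4.62 CPM at 6m and at 2.55, 5.47 and 8.61 at 28m, with a log2fc of 1.03 ± 0.30 (adjusted p = 0.0106). With the trend removed Ifit3 was not called (0.60 ± 0.25, adjusted p = 0.0683; between 0.00186 and 0.15 over all settings).

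Bst2 encodes tetherin, a membrane protein that holds enveloped virus particles at the cell surface. It was at 6.04, 6.83 and 8.84 CPM at 6m and at 8.23, 19.1 and 45.4 at 28m. The 6m mice were close to each other, 7 of 8 old mice lay above them. The log2fc was 1.44 ± 0.31 (adjusted p = 0.00211), and it was 0.83 ± 0.22 with the trend removed, still past the threshold. Rtp4, a receptor transporter protein that helps receptors reach the cell surface, was at 2.20, 2.82 and 3.69 CPM at 6m and at 2.43, 5.79 and 11.2 at 28m, with 5 of 8 old mice above all young ones. Its log2fc was 0.93 ± 0.27 (adjusted p = 0.0115), and 0.57 ± 0.21 with the trend removed.

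With the length and GC trend removed, 6 of the 8 genes rose, against 21.6% of all genes. The 4 that rose under every setting tried were Irf7, Ifit1, Bst2 and Usp18. Compared per kilobase of exon, Bst2 was the most abundant of the genes at 6m, with 7.91 ± 1.13 CPM per kb (SD, n = 7), and at 28m, with 22.03 ± 13.6 (n = 8). The other genes followed at 6m in the order Ifit3, Rtp4, Isg15, Ifit1, Irf7, Usp18 and Oasl2, from 1.53 ± 0.68 down to 0.561 ± 0.158, and neighbours in that order lay within 1 SD of each other. The order rests on all annotated exons. The longest transcript has 3123 bases against 6374 in Oasl2 and 1771 against 2790 in Usp18, and the order by transcript was not computed. Ubd was far below, at 0.0139 ± 0.0367 CPM per kb.

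**Figure D2:**
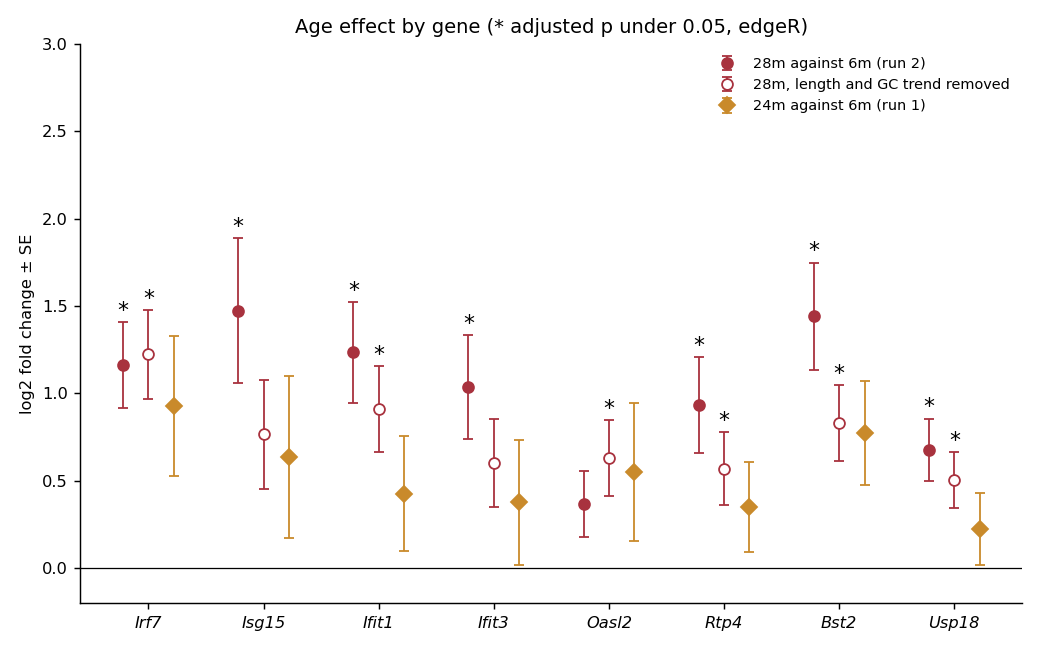
Log2 fold change ± SE of the 8 tested genes for 28m against 6m (filled circles), the same with the length and GC trend removed (open circles) and 24m against 6m (diamonds), with an asterisk at an adjusted p under 0.05. Isg15 fell from 1.47 to 0.77 and Oasl2 went from 0.37 to 0.63 when the trend was removed, and no 24m value was called.

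The levels of the genes were high or low in the same mice within the 28m group, as were those of many other genes. Replicate 3 was the highest mouse for 7 of the 9 genes and among the 2 highest for all 9, at 1.54 to 3.66 times the median of the other old mice in the 8 tested genes. At the other end, replicate 4 was among the 2 lowest for 8 of the 9. Replicates 3, 5 and 7 lay above all 6m mice in all 9 genes and replicate 2 in 8, while replicates 4 and 6 did so in 1 gene each. Pearson's r of the deviations of pairs of genes across the 8 mice, a description over shared libraries, lay between 0.69 for Irf7 with Usp18 and 0.99 for Rtp4 with Bst2, with a median of 0.80 over 28 pairs. Of 13447 other genes, 13.4% had r of at least 0.8 with the mean standardised deviation of the 8 genes in these mice. A correlation of this size with that mean was thus not rare. It is another measure than r between 2 single genes, whose rarity was not measured.

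These mice also differed in the trend with length. The 4 lowest slopes belonged to replicates 7, 3, 5 and 2, and the same 4 mice held the 4 highest levels of Isg15, Oasl2, Rtp4, Bst2 and Usp18, and 3 of the 4 highest of the other 4 genes. Of these genes Oasl2 has the most exonic bases, 6374, and Isg15 the fewest, 756. Leaving out replicates 3 and 7 changed no call, with log2fc of 1.04 in Irf7, 0.94 in Isg15 and 1.05 in Bst2. Leaving them out and removing the trend left 4 of the 8 called, Irf7, Ifit1, Bst2 and Usp18. Their log2fc was then 1.07, 0.70, 0.62 and 0.45. It was 0.49 in Isg15, 0.54 in Ifit3, 0.40 in Oasl2 and 0.35 in Rtp4. The part of the trend in the differences between old mice was not tested.

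**Figure D3:**
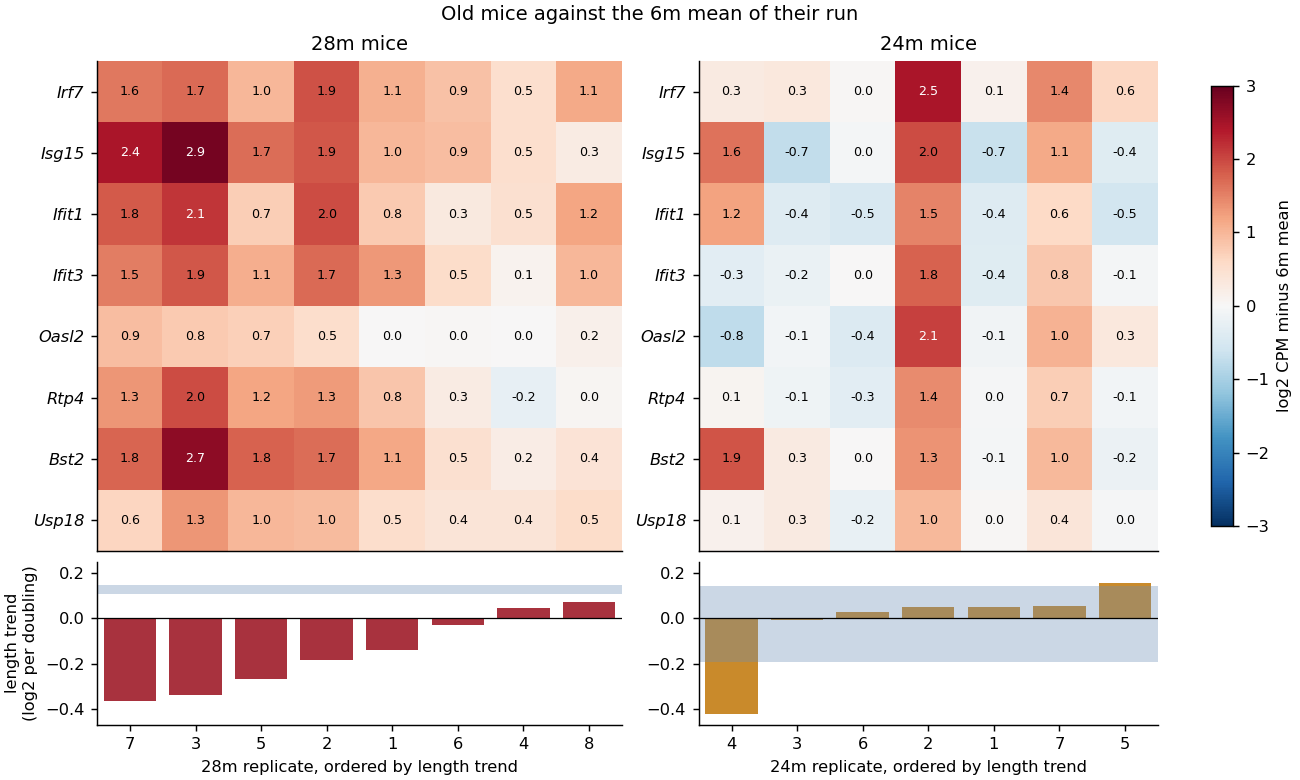
Log2 CPM of 8 genes in each old mouse minus the mean log2 CPM of the 6m libraries of its run (colours and numbers), above the length trend of that library in log2 per doubling of exonic length (bars), with the range of the 6m libraries shaded. At 28m the highest values stand over replicates 7, 3, 5 and 2 with slopes between -0.367 and -0.186, whereas the high column at 24m, replicate 2, had a slope of 0.0472.

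At 24m no gene was called in 8 tested, and 0.084% of 13103 genes, 11 in all, were called in either direction. The log2fc was positive in all 8, from 0.22 in Usp18 to 0.93 in Irf7, with a median of 0.49 against 0.03 over all genes. The lowest unadjusted p values were those of Bst2 (0.0203) and Irf7 (0.0343), with adjusted p of 0.366 and 0.4 in edgeR's quasi-likelihood test. DESeq2, which called 215 genes, and limma-voom, which called 12, called 0 of the 8. The limma-voom log2fc was lower than that of edgeR in all 8, at 0.40 in Isg15, 0.28 in Oasl2, 0.23 in Ifit3 and 0.21 in Ifit1. With the length and GC trend removed edgeR called 0 of the 8 as well, and 5 of the values were lower by more than 1.5 times, at 0.46 in Bst2, 0.33 in Isg15, 0.26 in Ifit1, 0.22 in Rtp4 and 0.13 in Usp18. The number of genes called in all was 30 without 24m replicate 4, and 5, 4 and 4 without 6m replicates 2, 5 and 6, with 0 of the 8 in each.

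The values at 24m rested on a few mice. Irf7 was at 2.83 CPM at the lowest, 3.42 at the median and 15.2 at the highest at 24m, against 1.90, 2.66 and 5.59 in the 6m libraries of the first run. Its highest level, in 24m replicate 2, was above that of every 28m mouse. The log2fc was 0.93 ± 0.40 with all mice and 0.44 without replicate 2. Oasl2 was at 1.96, 3.12 and 13.7 CPM at 24m and 1.85, 3.31 and 4.87 at 6m, so the medians were close, and its log2fc went from 0.55 ± 0.40 to 0.05 without that mouse. Ifit1 was at 1.74, 1.93 and 7.10 CPM at 24m and 2.06, 2.501 and 3.48 at 6m. Here the 24m mice parted into 4 below all 6m mice and 3 above all of them, and the log2fc was 0.43 ± 0.33, or 0.13 without replicate 2 and 0.26 without replicate 4.

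Isg15 was at 0.616, 0.988 and 3.95 CPM at 24m and 0.606, 1.02 and 2.24 at 6m, with a log2fc of 0.64 ± 0.46, or 0.29 without replicate 2. Bst2 was at 6.64, 9.003 and 27.4 CPM at 24m and 5.49, 8.21 and 9.25 at 6m, with 3 of 7 old mice above all young ones and a log2fc of 0.77 ± 0.30, or 0.49 without replicate 4. In Ifit3, Rtp4 and Usp18 the medians at 24m were 2.59, 3.08 and 2.34 CPM and those at 6m 2.65, 3.06 and 2.07, so the typical 24m mouse was near the typical 6m mouse in these genes. Their log2fc were 0.38 ± 0.36, 0.35 ± 0.26 and 0.22 ± 0.21, and without replicate 2 they were -0.05, 0.06 and 0.05. Usp18 was at 0.34 without 6m replicate 2. Ubd had 19 counts in 6 of 7 libraries at 24m and 2 in the 6m libraries of that run, a ratio of 7.88 with an exact interval of 1.90 to 69.8. The difference in mean log2 CPM of Ubd was 0.78 (exact permutation test, two-sided, p = 0.0245, the same after adjustment over the 2 tests), and the fit without a filter did not call it (log2fc 2.54, adjusted p = 0.333).

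Replicate 2 at 24m was the highest mouse for 8 of the 9 genes, at 1.87 to 4.50 times the median of the other 24m mice, and it lay above all 6m mice in all 9. Replicate 7 did so in 7 genes and stood at 1.22 to 2.51 times the median of the others. Neither library had an unusual trend with length, with slopes of 0.0472 and 0.0525. Replicate 4 showed another pattern: it was high in Bst2 (27.4 CPM, the highest at 24m), Isg15 (3.18) and Ifit1 (5.87), near the others in Irf7 (3.32) and Rtp4 (3.32), and the lowest of the group in Oasl2 (1.96). That library had the most negative slope of all 29. The other 4 mice at 24m lay above all 6m mice in 0 or 1 gene.

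The age effects at 28m and 24m were set against each other in 1 edgeR fit over the 29 libraries. It called 0 of the 8 genes and 0% of 13455 genes, of which 1611 had an unadjusted p under 0.05, and limma-voom called 0 genes as well. Without 24m replicate 4 it called 1657 genes, with 0 of the 8 among them. The effect at 28m was larger in 7 genes, by 0.26 ± 0.47 in Irf7 to 0.86 ± 0.65 in Isg15 on the log2 scale, and smaller in Oasl2, by -0.16 ± 0.44. The lowest unadjusted p with all mice was that of Ifit1 (0.0758, adjusted p = 0.446). This edgeR fit took the 2 libraries of a 6m mouse as independent. In the limma-voom fit blocked by mouse the unadjusted p was 0.0156 in Ifit1, 0.0313 in Ifit3 and 0.0453 in Usp18. The adjusted p there was 0.168, 0.200 and 0.226. The edgeR values moved with single mice. Without 24m replicate 2 the difference was 0.74 in Irf7, 0.33 in Oasl2, 1.12 in Ifit1, 1.10 in Ifit3, 0.89 in Rtp4 and 0.64 in Usp18, the last 4 with unadjusted p between 0.0138 and 0.0164 and an adjusted p of 0.522. Without 28m replicate 3 it was 0.40 in Bst2 and 0.40 in Rtp4. Irf7 was lowest, at 0.13, without 24m replicate 6, and Oasl2 at -0.30 without 24m replicate 4. With the trend removed the effect at 28m was larger in all 8, by 0.12 ± 0.41 in Oasl2 to 0.66 ± 0.39 in Ifit1, and 0 were called. A gene called at 28m and not at 24m is thus not shown to differ between these ages. In Irf7 and Oasl2, differences of either sign lay within 1 SE of the value in the edgeR fit with all mice. In the limma-voom fit blocked by mouse this held for Oasl2 (0.09 ± 0.33) and not for Irf7 (0.46 ± 0.33).

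The 7 mice at 6m were measured in both runs, which shows how far the level of a gene in a mouse recurs. Replicate 2 was the highest mouse for 7 of the 9 genes in each run, at 1.13 to 2.44 times the median of the others in the first and 1.19 to 3.01 times in the second. Irf7 in this mouse was 5.59 CPM in the first run and 5.58 in the second, while the other 6 mice lay between 1.89 and 4.01. Isg15 in it was 2.24 and 2.22 CPM. Between the runs, edgeR's test paired by mouse called 0 of the 8 genes and 0% of 12884 genes, of which 1052 had an unadjusted p under 0.05. Without replicate 4 it called 186 genes and 0 of the 8. The fold changes of the 8 lay between -0.20 in Isg15 and 0.08 in Irf7 on the log2 scale.

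Replicate 4 differed between its 2 libraries. Its library of the first run, with the slope of -0.193, held 1.59 CPM of Isg15 and that of the second, with a slope of 0.128, held 0.409, a ratio of 3.87. The ratio was between 1.03 in Irf7 and 1.66 in Ifit3 for 6 genes, and 0.658 in Oasl2. Both libraries came from the same mouse, so the levels of Isg15 and Oasl2 in it moved in opposite directions with the library. Over the 8 genes the median ratio of the first to the second run was 1.53 in this mouse and between 0.849 and 1.08 in the other 6.

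**Figure D4:**
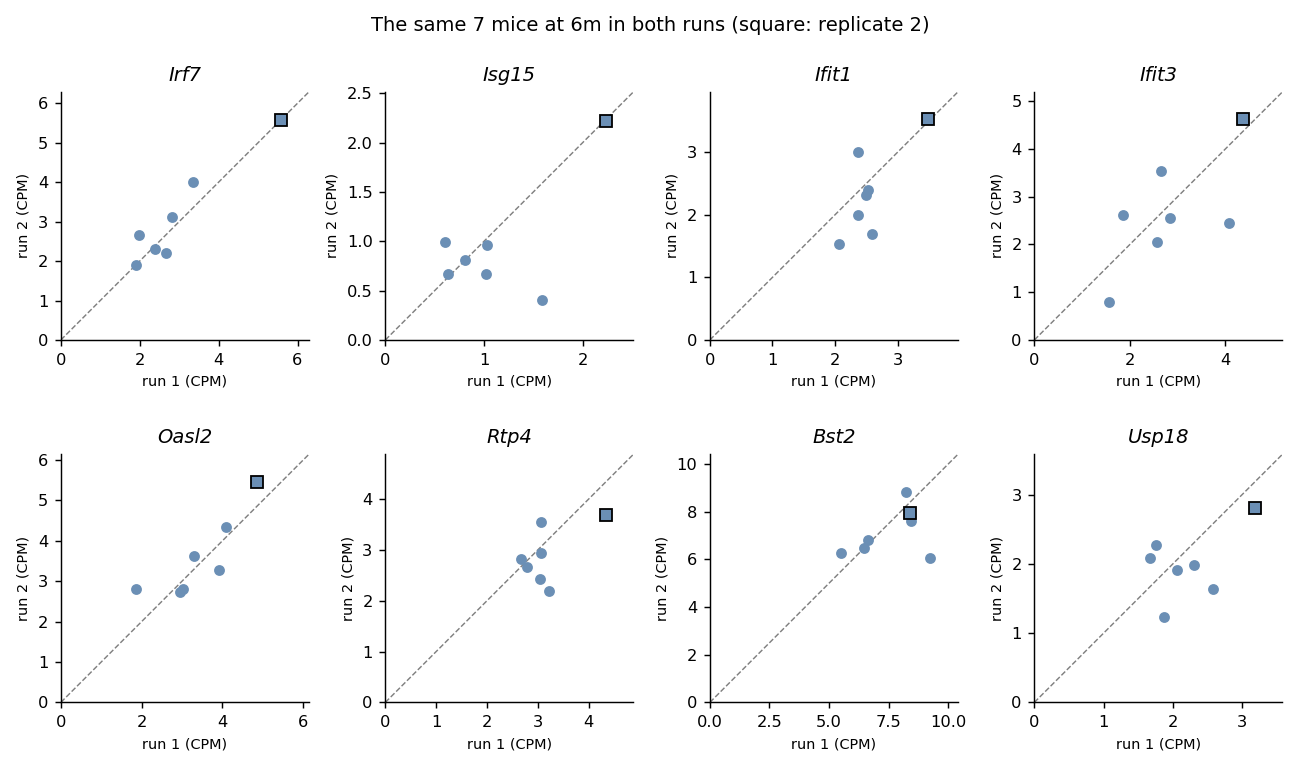
CPM of 8 genes in the same 7 mice at 6m in the first run (horizontal) and in the second run (vertical), with the line of equal values dashed and replicate 2 drawn as a square. Replicate 2 is at the upper right in every panel but that of Bst2, and the point far below the line in Isg15 is replicate 4, with 1.59 against 0.409 CPM.

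The rest of the pathway was described through 7 lists by role with 120 genes, of which 115 were in the table and 99 were tested. At 28m, 18 rose and 12 fell, with a median log2fc of 0.27 against 0.01 over all genes, so the share that rose was below the 24.3% of all genes. With the trend removed 18 rose and 7 fell, where 21.6% of all genes rose and 15.5% fell. At 24m edgeR called 0 of the 99, with 16 at an unadjusted p under 0.05 and a median of 0.15 against 0.03. Over all genes edgeR called 11 of 13103. DESeq2 called 2 on the lists, and 215 of 15367 genes in all.

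The ligands were at or near the limit of detection. Of 9 interferon genes listed, 7 were in the table, 3 had no count in any library, and the most abundant, Ifng, had 14 counts over all 29 libraries: 2 and 7 at 6m and 24m in the first run and 1 and 4 at 6m and 28m in the second. At these depths 3 counts in a group correspond to 0.0149 to 0.0195 CPM. Of the receptors and kinases, 0 of 8 rose and 2 fell, Jak2 with a log2fc of -0.67 ± 0.14 (adjusted p = 0.00161) and Jak1 with -0.48 ± 0.13 (adjusted p = 0.00708), from 83.8 to 53.5 and from 210 to 153 mean CPM, where 22.9% of all genes fell. The fall of Jak1 was not called with the trend removed.

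Among the STAT and IRF factors, 2 of 8 rose and 2 fell, shares close to the 24.3% and 22.9% of all genes. Irf9, the DNA-binding part of the complex at the ISRE, rose by 0.34 ± 0.13 (adjusted p = 0.0481), and Irf3, which induces interferon after sensing of nucleic acid, by 0.46 ± 0.11 (adjusted p = 0.0044). Irf5 fell by 0.88 ± 0.15 on the log2 scale (adjusted p = 0.000706) and Irf2, known as a repressor of interferon-stimulated genes, fell by 0.55 ± 0.10 (adjusted p = 0.000739). Irf8 did not pass (0.27, adjusted p = 0.0981) but was called higher with the trend removed (0.58, adjusted p = 0.0098). Of 11 sensors of nucleic acid tested, 2 rose and 2 fell, smaller shares than those of all genes. Zbp1 (1.44 ± 0.45, adjusted p = 0.0171) and the adaptor Myd88 (0.49 ± 0.12, adjusted p = 0.00433) rose, and Tlr3 (-0.46) and the adaptor Mavs (-0.34) fell.

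Of 5 genes listed for the conjugation of Isg15, 0 rose and 2 fell, where 24.3% of all genes rose and 22.9% fell. The 2 were Herc3 (-0.35) and Trim25 (-0.32), both not called with the trend removed. Herc3 stands here by its place on the list, and its part in the conjugation was not tested. Herc6 did not pass (log2fc 0.07 ± 0.17, adjusted p = 0.742). Uba7, the activating enzyme, was at 8.20 mean CPM at 6m and 7.81 at 28m, and Ube2l6, the conjugating enzyme, at 4.74 and 6.87, with a log2fc of 0.50 ± 0.26 that did not pass (adjusted p = 0.122). Of 8 negative regulators 0 rose and 2 fell, where 24.3% of all genes rose and 22.9% fell. The 2 were the phosphatase Ptpn11 (-0.76 ± 0.13, adjusted p = 0.00062) and Usp25 (-0.36), the latter not called with the trend removed (-0.28, adjusted p = 0.067). Of the 59 other interferon-induced effectors tested 14 rose, a share close to the 24.3% of all genes. Only 2 fell, where 22.9% of all genes did, and the median log2fc was 0.43. The largest rise was that of Cxcl10, a chemokine that attracts T cells, from 0.446 ± 0.246 to 2.75 ± 1.07 CPM (SD, n = 7 and 8), with a log2fc of 2.58 ± 0.35 (adjusted p = 0.000232). Ifi47, a GTPase, rose by 1.41 ± 0.36 (adjusted p = 0.00593) and Slfn2 by 1.27 ± 0.40 (adjusted p = 0.0173), while Gbp9 (-0.52) and Dtx3l (-0.33) fell. With the trend removed Slfn2 (0.77, adjusted p = 0.0739) and Dtx3l (-0.20, adjusted p = 0.147) were not called. In all, 43 of the 59 did not pass.

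**Figure D5:**
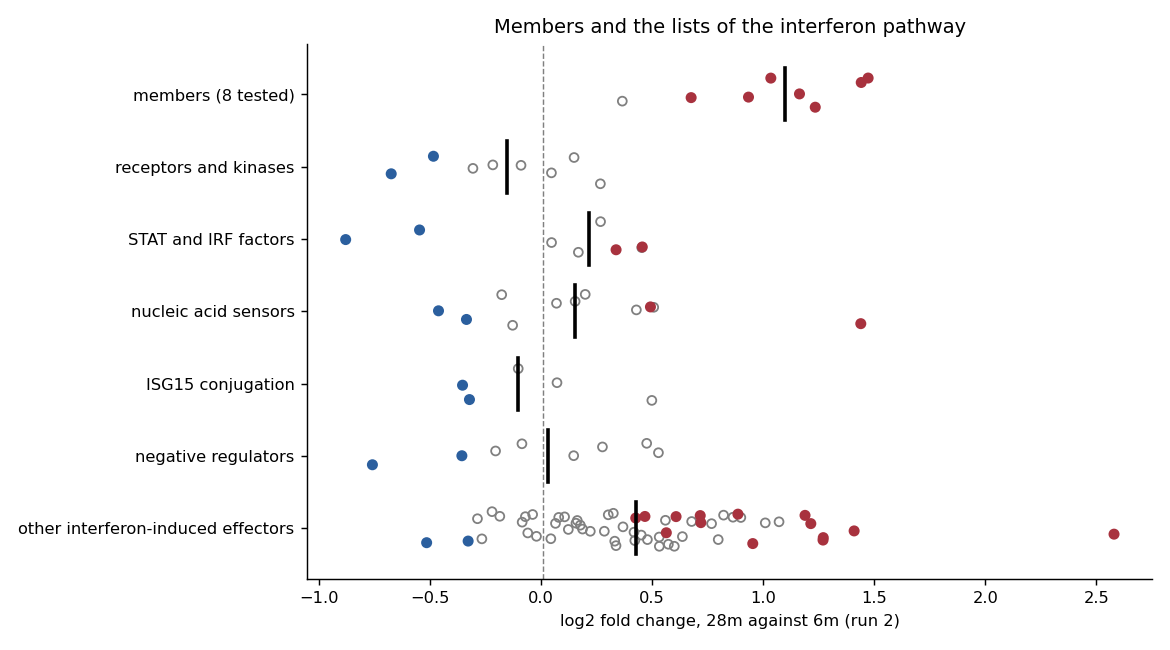
Log2 fold change at 28m of the 8 tested genes followed here and of the tested genes of 6 lists of the interferon pathway, filled where called (red higher, blue lower) and open where not, with the median of each list as a black bar and that of all genes, 0.01, as a dashed line. The median was 1.10 in the top row, 0.43 in the other effectors and -0.15 in the receptors and kinases. Genes and lists were chosen with earlier results of these data known.

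The genes most alike in pattern were sought over 22 mice, with the 2 libraries of a 6m mouse averaged, as Pearson's r of a gene's deviations from its group means with the mean standardised deviation of the 8 tested genes. Of 13447 genes compared, the 10 highest were Ly6e (r = 0.91), Gm4951 (0.90), Ifi47 (0.90), H2-T23 (0.90), H2-D1 (0.88), Serp1 (0.88), Trim30a (0.88), Tapbp (0.88), Oas1a (0.87) and Xaf1 (0.87). H2-T23 and H2-D1 encode class I histocompatibility molecules and Tapbp encodes tapasin, which loads peptides on them. On the pathway lists were 5 of the 10, Ly6e, Ifi47, Trim30a, Oas1a and Xaf1, and 18 of the 50 highest. At 28m, where 24.3% of all genes rose, 6 of the 10 did, Gm4951 (log2fc 1.53, adjusted p = 0.00521), Ifi47, H2-T23 (0.86, adjusted p = 0.0162), H2-D1 (0.74, adjusted p = 0.0023), Oas1a and Xaf1, and 4 did not pass, Ly6e (0.33), Serp1 (0.19), Trim30a (0.28) and Tapbp (0.11). With the trend removed Oas1a was not called (0.79, adjusted p = 0.0833). The order was that of all mice together: none of the 10 was among the 10 highest within the 28m mice alone, and 8 were when 24m replicate 2 was left out. Pairs of the 8 genes had r between 0.37 for Oasl2 with Bst2 and 0.88 for Irf7 with Oasl2 over the 22 mice.

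Whole muscle holds blood, vessels and immune cells besides fibres, and more cells of a type cannot be told apart from more RNA per cell. At 28m, 3 of 5 pan-leukocyte markers rose, Cd52, Coro1a and Tyrobp, where 24.3% of all genes rose, and Tyrobp was not called with the trend removed (adjusted p = 0.275). Their list summed to 95.7 CPM in 28m replicate 7 and to 17.4 to 34.2 in the other 7 old mice, against 13.1 to 32.8 at 6m, with medians of 22.1 and 18.7. Of 10 macrophage markers 0 rose and 2 fell, Cd163 and Mertk, where 24.3% of all genes rose and 22.9% fell. The sum of the macrophage list was 364 CPM in 28m replicate 7 and 57.8 to 85.2 in the other 7, against 50.8 to 154. None of 11 T and NK cell markers in the table was abundant enough for the test, with sums of 0.422 to 4.45 CPM against 0.256 to 1.22, and 1 of 5 plasmacytoid dendritic cell markers was tested and did not pass. Of 6 endothelial markers 5 fell, and of 5 fibroblast markers 3 fell, where 22.9% of all genes fell. With the trend removed 3 endothelial markers, Cdh5, Kdr and Tek, and 0 fibroblast markers were called lower. The neutrophil markers summed to 21.4 CPM in replicate 7 and 1.54 to 6.66 in the other old mice, against 1.36 to 8.41 at 6m, with medians of 5.03 and 1.79, and 0 of the 3 tested passed. Of 8 fibre markers 2 rose, Tnnt3 and Tnnc2, and 1 fell, Myh4, where 24.3% of all genes rose and 22.9% fell. With the trend removed Acta1 alone was called, lower (log2fc -0.21, adjusted p = 0.0373). No marker in the table was at 0 over a whole group.

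The mice highest in the interferon-stimulated genes at 24m and 6m were also the highest in several of these sums. At 24m, replicate 2 had the highest macrophage sum (406 CPM, the others 44.7 to 214), pan-leukocyte sum (112, the others 11.0 to 77.0), fibroblast sum (2062, the others 439 to 1380), T and NK cell sum (5.91, the others 0.558 to 2.97) and sum of B and plasma cell markers (16.3, the others 1.91 to 6.83). At 6m, replicate 2 had the highest macrophage sum in each run, 154 CPM in both, with the others between 50.8 and 109. It also had the highest pan-leukocyte sums, 37.4 and 32.8 CPM with the others at most 24.4, and the highest fibroblast sums, 2687 and 2741 CPM with the others at most 1153. At 28m, replicate 3 had a macrophage sum of 70.0 CPM, near the median of 69.9. It had the highest sum of T and NK cell markers, 4.45 CPM, the highest of B and plasma cell markers, 4.26 with the others between 0.839 and 3.29, and the second highest pan-leukocyte sum, 34.2, below the 95.7 of replicate 7. The part of these cells in the levels of the genes was not tested.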

How the data were processed

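Single-end reads of 75 bases from the whole TA were demultiplexed with bcl2fastq 2.20 and aligned by the authors to mm10 with STAR 2.5.4b, whose per-gene read counts were deposited without normalization; the strand setting is not given in the sources used here. The deposited series text swaps the numbers of mice at 24m and 28m, and the sample labels were followed. Which 6m libraries belong to 1 mouse comes from the column names, and their deviations from the group means correlated between 0.218 and 0.814.

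The counts were tested with edgeR 4.0.16 in R 4.3.3 (filterByExpr, TMM, quasi-likelihood test, Benjamini-Hochberg adjustment over all genes tested, threshold 0.05), and standard errors were derived from the test. Differences between runs were tested with the mouse as a block. Log2 CPM used a prior count of 2. Ubd, under the filter, was compared by exact permutation of its log2 CPM (scipy 1.17.1). The length and GC trend was removed as a spline fitted in each library. Lengths came from GENCODE, matched by symbol for 20202 genes, by synonym for 1897 and not for 438. Promoters and their letters came from RefSeq. Each fit was tested on simulated counts with planted changes.

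Named were the 9 genes, up to 3 largest rises and 3 largest falls called at 28m in each pathway list, and the 10 genes most alike in pattern. Some of the genes on the lists are not named here. The 9 genes, the lists and the tests were chosen with earlier results of these data known. Genes of the marker lists, 24m replicates 2, 4 and 7, 28m replicates 2 to 7 and 6m replicates 2 and 4 are named besides, after their values were seen. Alternatives were DESeq2 1.42.0, limma-voom (limma 3.58.1), other scalings and filters, a single fit of all groups, the other run's 6m libraries, the trend removed, the mouse as a block or not, and each mouse left out. Figures were drawn with matplotlib 3.10.9.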

Additional observations from a re-analysis of the deposited data

Results flagged for a closer look

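There were 36 groups of values (9 genes in 4 groups of libraries). In each, the gap from the highest or lowest library to its neighbour was divided by the full range. A library stood far apart in 11. About 1 in 20 such groups would stand out by chance if values were normally distributed, which was not checked for CPM. The genes are also not independent of each other, since 24m replicate 2 and 6m replicate 2 account for 8 of the 11.

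At 24m, replicate 2 stood far above the other 6 mice in Irf7 (15.19 CPM), Ifit3 (9.185 CPM), Oasl2 (13.75 CPM) and Usp18 (4.239 CPM). At 6m, replicate 2 stood above the others in Irf7 (5.589 CPM), Ifit1 (3.485 CPM) and Rtp4 (4.34 CPM) in the first run, and in Isg15 (2.224 CPM) in the second. At 28m, replicate 3 stood above the others in Bst2 (45.41 CPM) and Ubd (1.223 CPM). Ubd in 6m replicate 1 of the second run, at 0.09042 CPM, was the only 6m library of that run with a count, and the value rests on 2 reads. With all others at 0 the gap there equals the range.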

How the results depend on the processing

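Of the alternative values for single genes, 663 kept their direction and their side of the threshold, 2 newly passed, 5 no longer passed and 10 changed sign. At 28m, 7 or 8 of the 8 genes were called whichever mouse was left out, 7 under the other scalings, filters and tools, 6 with the length and GC trend removed, and 4 when 28m replicates 3 and 7 were left out as well, an alternative chosen after seeing the data. The number of all genes called at 28m was 2981 of 12984 with the 6m libraries of the other run. It was 3968 of 12992 with those 2 mice left out and the trend removed. The pathway lists then held 19 called genes, or 18 with the trend removed.

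At 24m all genes called numbered 215 with DESeq2, 152 in 1 fit over all libraries, 46 with the 6m libraries of the other run, 17 with the trend removed, 121 without 24m replicate 4 and 6m replicate 4, 31 with the trend removed besides, and between 4 and 30 with each mouse left out. Of the pathway lists, DESeq2 called 2 and the fit with the 6m libraries of the other run called 1. Ubd at 24m was not called by edgeR without a filter (log2fc 2.542). Ifit3 at 24m lay between -0.0493 and 0.521 with a mouse left out, the negative value being that without 24m replicate 2.

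In the difference between the ages, Oasl2 changed sign to 0.0863 in the limma-voom fit with a replicate block by mouse, 0.0907 in that fit without it and 0.121 with the trend removed, and lay between -0.297 and 0.331 with a mouse left out. The replicate block changed no call. Between 0 and 1657 of all genes were called with a mouse left out. Between the runs at 6m this was 0 to 186, Isg15 lay between -0.332 and 2.21e-06, Ifit3 between -0.185 and 0.0439 (0.0301 with the trend removed) and Bst2 between -0.101 and 0.00724 (0.00536). Where no cause is given it was not tested. Genes near 1 CPM, such as Isg15 with 8 to 127 counts per library in the second run, are limited by depth, and Ubd by single reads.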
